A study of Rattus norvegicus with 30 samples.

Results

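The cytosolic ribosomal protein genes encode the proteins of the small (40S, Rps) and large (60S, Rpl) subunits of the ribosome, and they were followed here in the lungs of rats with severe acute pancreatitis (SAP), which injures the lung, and after treatment. They were taken as the protein-coding rows named Rps or Rpl with a number, an optional letter and an optional further number, together with Rplp0, Rplp1, Rplp2 and Rpsa. This rule found 102 of the 22914 gene rows, 36 of the small and 66 of the large subunit, with 83 distinct symbols. Of the 102 rows, 9 symbols accounted for 28, because they stand for more than 1 Ensembl gene (Rpl39, Rpl35a, Rps29, Rpl32, Rpl37, Rpl38, Rplp1, Rps10 and Rps2), and such rows are given below with their chromosome, except that Rps2 stands for the row on chromosome 10 (ENSRNOG00000014179), since the row on chromosome 5 had at most 33 reads in a library. The rule used names only, and no measured value.

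RNA-seq was performed on lung tissue of 30 male Sprague Dawley rats, 8 weeks old and 180 to 220 g, with 3 rats in each of 10 groups collected at 6 or 24 hours. In Sham rats the pancreas was rotated at surgery, in Con rats saline was infused into the biliopancreatic duct, and in SAP, DEX and Emo rats 5.0% sodium taurocholate was infused there at 0.1 mL per 100 g. DEX rats then received dexamethasone, a glucocorticoid, at 10 mg/kg intravenously at 2 and 12 hours. Emo rats received emodin, an anthraquinone of rhubarb, into the stomach at the same hours, at 40 mg/kg by the treatment protocol and 10 mg/kg by the sample descriptions, a conflict that was not settled. Doses and collection are both timed from the operation, so rats collected at 6 hours preceded the 12-hour dose. All rats were fasted and anaesthetised with pentobarbital, and the groups without a drug received its vehicle. Lung identity was plain in every library, since the 8 alveolar type 2 markers summed to at least 25230 FPKM (fragments scaled by transcript length and by mapped fragments), while 8 heart muscle markers summed to between 7.46 and 326 FPKM with wide differences between rats of the same group. In whole tissue, fewer cells of a type and less RNA per cell cannot be told apart.

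Ribosomal proteins are needed in equal numbers, 1 copy of most of them for each ribosome, and their mRNAs are among the most abundant in almost every cell. Many of these mRNAs begin with a run of pyrimidines, the terminal oligopyrimidine (TOP) tract, through which the mTOR pathway and Larp1 control their translation, so that protein output can change without a change of mRNA. Several members have further roles, such as Rpl5, which with Rpl11 binds Mdm2 and so restrains p53 degradation, Rpsa, which is also known as a laminin receptor, and Rps6, the best known target of the S6 kinases. Retrotransposed copies of these genes are common in rodent genomes, and in these data reads that mapped to more than 1 place had been discarded, so the value of a row depends on how much of its sequence is unique.

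The start regions of several members are shown because the run of pyrimidines at the start is what these genes are known for. Each window holds 45 bases before the RefSeq start and 15 bases from it on, 5′ to 3′ on the gene's strand, and capitals mark the longest stretch of a C followed by at least 4 pyrimidines that has its first C within 10 bases of the start. Where the pyrimidines go on further upstream, as in Rps2 and Rpl5, and by a single c in Rps6, that part is left in lower case. The longer run of pyrimidines further upstream in the Rps6 window is separate from its marked stretch. Rps2, Rplp0 and Rpl28 are members that were lower at 24 than at 6 hours in both the DEX and the Emo rats, Rpl5, Rpl23 and Rps3a are members that were higher, and Rps6 is the member that varied most.
Rps2: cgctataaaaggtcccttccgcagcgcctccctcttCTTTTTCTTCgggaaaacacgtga
Rplp0: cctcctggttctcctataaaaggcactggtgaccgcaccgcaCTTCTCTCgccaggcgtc
Rpl28: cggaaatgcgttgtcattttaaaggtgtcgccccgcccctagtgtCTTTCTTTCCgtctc
Rpl5: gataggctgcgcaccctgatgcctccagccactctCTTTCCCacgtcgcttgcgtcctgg
Rpl23: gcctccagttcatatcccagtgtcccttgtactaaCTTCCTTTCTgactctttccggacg
Rps3a: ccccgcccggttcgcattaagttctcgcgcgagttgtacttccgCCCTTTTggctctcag
Rps6: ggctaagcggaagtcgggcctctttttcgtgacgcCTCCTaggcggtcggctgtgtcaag
In the RefSeq assembly GRCr8 these windows are chr10:14251803-14251862 (plus strand) for Rps2, chr12:46718376-46718435 (minus strand) for Rplp0, chr1:78083518-78083577 (minus strand) for Rpl28, chr14:1995211-1995270 (minus strand) for Rpl5, chr10:83272170-83272229 (minus strand) for Rpl23, chr2:173827028-173827087 (minus strand) for Rps3a and chr5:106420526-106420585 (minus strand) for Rps6.

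A start region on the chromosome given in the files was found for 55 of the 83 symbols. Such a stretch of pyrimidines was present in 38 of the 55 (69.1%), against 28.8% of 27457 start regions of all genes searched the same way. In the 300 bases around the start, the letters CCGGAAG of ETS-family factors, on either strand, were present in 30.9% of the members and 9.22% of all genes, GGGCGG of SP1 in 56.4% and 34.9%, and AAGATGG of YY1 in 12.7% and 7.29%. TATAAA between 40 and 20 bases before the start, on the gene's strand, was present in 1 of the 55 (1.82%), Rplp0, and in 1.33% of all genes. The run of pyrimidines was in 8 of the 10 matched members that fell with time in both drug groups, all but Rpl18 and Rpsa, and in all 4 matched members that rose, so both directions held genes with it. A match of letters is a description of the window and not a binding site.

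Most members were strongly expressed. Of the 102 rows, 30 had a mean of at least 1000 FPKM over the 30 libraries, 65 had at least 100 FPKM, 15 lay between 1 and 100 FPKM and 22 lay under 1 FPKM. The 5 highest were Rps29 on chromosome 6 with a mean of 4678 FPKM (range 3779 to 5719), Rpl41 with 3180 (2347 to 4518), Rps27 with 3048 (2158 to 4409), Rplp1 on chromosome 8 with 2688 (2232 to 3528) and Rps15 with 2054 (1373 to 2853). FPKM divides by the length of the gene model, so that Rpl7 had a mean of only 151 FPKM on 10442 to 40479 reads while Rpl3 had 528 FPKM on 13843 to 32973 reads. The members together took 4.29% to 6.16% of the gene reads of a library (median 5.11%), and 10.1% to 14.0% of the summed FPKM.

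**Figure D1:**
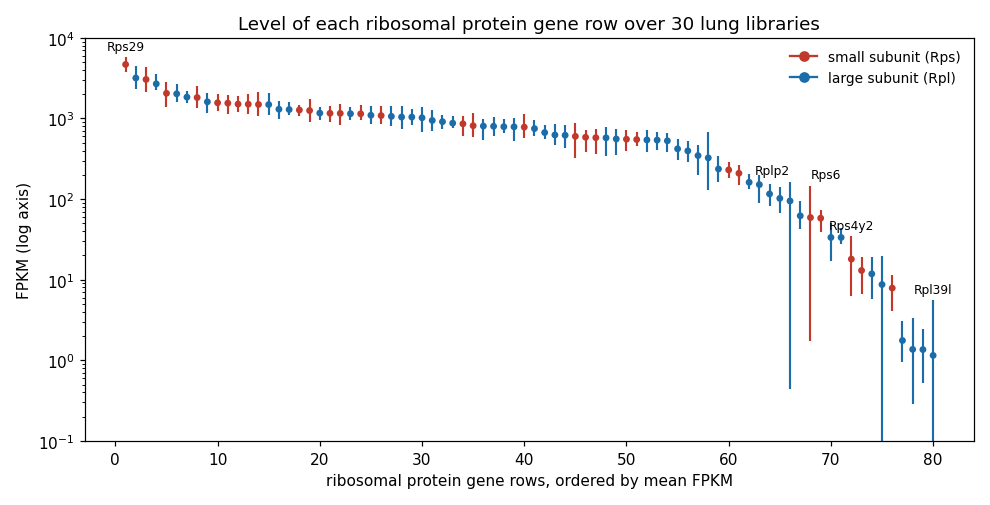
Mean FPKM (points, log axis) and the range over 30 libraries (lines) of the 80 ribosomal protein rows with a mean of at least 1 FPKM, ordered by mean, with small subunit rows in red and large subunit rows in blue. Most rows vary little around their mean, whereas Rplp2 reaches down to 0.44 FPKM and Rps6 to 1.74 FPKM; lines that reach the lower edge include libraries listed at 0.

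The lowest rows were those with hardly any unique reads. Of the 102 rows, 19 had under 10 reads in every library, and these 19 were also the ones left out by the filter on low counts, so that 83 rows were tested. The 5 lowest means belonged to Rpl7a with 0.00267 FPKM, Rpl8 with 0.00533, Rpl39 on chromosome X (ENSRNOG00000038654) with 0.006, Rpl39 on chromosome 7 with 0.00633 and Rpl31l3 with 0.00633, and all of them were listed at 0 in most libraries. This does not say that the proteins were not made. A row on chromosome 3 described as ribosomal protein L8-like had a median of 11130.5 reads, a row on chromosome 18 described as L7a-like had 2914.5, and a row on chromosome 5 described as L22-like had 9004.5, while the row named Rpl22 had at most 4 reads. Likewise the row named Rps4x lay on chromosome 4 with a median of 406 reads, and a row on chromosome X described as S4, X-linked X-like had 24146. In all, 192 further rows were described as cytosolic ribosomal proteins under other names, 34 of them with a median above 1000 reads, and they took 1.17% to 1.63% of gene reads.

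Paralogs of standard members were counted as rows of their own. Rps27l, a paralog of Rps27 that p53 induces, had a mean of 58.0 FPKM (39.3 to 72.3), Rpl22l1 had 62.0 (42.1 to 95.8), above the row named Rpl22, which held hardly any unique reads, Rpl7l1 had 33.4 (28.0 to 44.3) and Rps4y2 had 17.99 (6.2 to 34.6), next to 13.01 for the chromosome 4 row of Rps4x. Rpl10l had 1.37 FPKM, Rpl39l 1.15 FPKM and Rpl3l 0.177 FPKM. Rpl3l, known from heart and skeletal muscle, never exceeded 21 reads, against 13843 to 32973 reads for Rpl3.

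Between rats the members were steady. The median SD of a member between rats of the same group was 0.195 on the log2 CPM scale (83 rows), against 0.275 over all 15934 genes tested, and among genes with a mean log2 CPM above 8 it was 0.18 for 58 members and 0.221 for 500 other genes. The 5 rows with the largest SD of log2(FPKM + 1) over the 30 libraries were Rps6 (2.41), Rplp2 (1.49), Rpl39l (0.772), Rpl38 on chromosome 8 (0.714) and Rpl30 (0.600), whereas the 5 smallest were rows near 0, namely Rpl7a (0.0144), Rpl8 (0.0255), Rpl22l2 (0.0356) and Rpl39 on chromosome X (ENSRNOG00000038654, 0.0436), with Rpl31l3 and Rpl39 on chromosome 7 tied at 0.0458. Rplp2 owed its place to SAP-6h replicate 3 with 3 reads and Emo-24h replicate 3 with 18 reads, since the other 28 libraries held 738 to 1787. Rpl38 on chromosome 8 had 0 reads in Emo-6h replicate 1 and 31 to 146 elsewhere, and Rpl30 ranged from 895 to 8229 reads.

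Rps6, the small subunit protein phosphorylated by S6 kinases, was either nearly absent or plainly present in a library. In Sham-6h rats it had 69, 69 and 2066 reads, in Con-6h rats 58, 84 and 43, in SAP-6h rats 2262, 99 and 37, in DEX-6h rats 2635, 2422 and 1624, and in Emo-6h rats 112, 70 and 2024. At 24 hours it had 3841, 3308 and 2445 reads in Sham rats, 86, 2486 and 2199 in Con, 102, 48 and 71 in SAP, 4179, 3371 and 2603 in DEX, and 99, 3160 and 3247 in Emo. No library lay between 112 and 1624 reads, and rats on both sides of this gap occurred in 5 of the 10 groups, so that rats of the same group differed by more than most groups did.

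**Figure D2:**
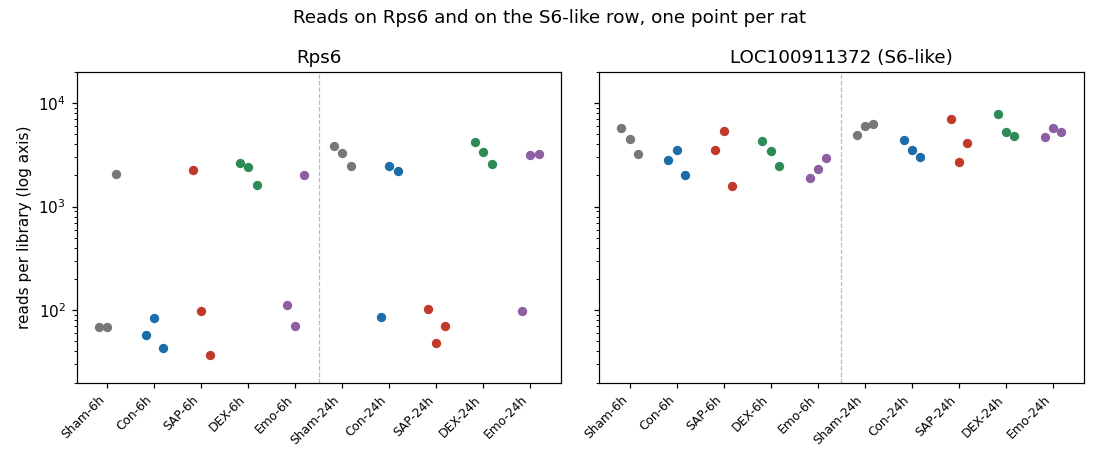
Reads on Rps6 (left) and on the S6-like row LOC100911372 (right) in each rat, by group, on a log axis. Rps6 lies at 37 to 112 reads in 14 rats and at 1624 to 4179 in 16, while the S6-like row lies at 1575 to 7870 in all 30.

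Accordingly, Rps6 was the member with the largest called difference at 24 hours. It was lower in SAP-24h than in Sham-24h rats by a log2 fold change of -5.33 (SE 1.65, edgeR adjusted p = 0.0364), lower than in Con-24h rats by -4.55 (SE 1.60, edgeR adjusted p = 0.0435) and higher in DEX-24h than in SAP-24h rats by 5.35 (SE 1.65, edgeR adjusted p = 0.0470). In Emo-24h against SAP-24h rats the difference was 4.81 (SE 1.61, edgeR adjusted p = 0.0626), which missed the threshold. These comparisons share the SAP-24h rats. With same-numbered rats fitted as blocks, the call for DEX was lost. The call against Sham-24h was kept only without Sham-24h replicate 3 among the 6 fits that left out 1 library, with an adjusted p of up to 0.0977, and the call for DEX was lost in all 6, with up to 0.123. The S6-like row LOC100911372 on chromosome 5 had 4872, 6004 and 6300 reads in Sham-24h, 6942, 2689 and 4090 in SAP-24h and 7870, 5270 and 4860 in DEX-24h rats. Summed over both rows, counts scaled to gene reads (CPM) were 295, 347 and 324 in Sham-24h, 191, 222 and 225 in Con-24h, 246, 87.3 and 144 in SAP-24h, 364, 307 and 262 in DEX-24h and 191, 321 and 342 in Emo-24h rats. The sum was thus below every Sham-24h and DEX-24h rat in all 3 SAP-24h rats, by less than on Rps6 alone, but SAP-24h replicate 1 lay above every Con-24h rat, so that the groups overlapped there.

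To compare the family as a whole, its share of gene reads was set out by group. At 6 hours it was 5.77% ± 0.369 (SD, n = 3) in Sham, 5.06% ± 0.602 in Con, 5.11% ± 0.720 in SAP, 5.22% ± 0.552 in DEX and 4.75% ± 0.281 in Emo rats. At 24 hours it was 5.43% ± 0.128 in Sham, 5.53% ± 0.619 in Con, 4.77% ± 0.513 in SAP, 4.81% ± 0.389 in DEX and 4.93% ± 0.158 in Emo rats. Emo-6h rats, at 4.44% to 4.98%, lay below all Sham-6h rats, at 5.38% to 6.11%. The SAP-24h rats, at 4.35% to 5.34%, overlapped the Sham-24h rats, at 5.34% to 5.57%, by their highest value only, and the DEX-24h rats, at 4.40% to 5.17%, and the Emo-24h rats, at 4.75% to 5.04%, lay below them without overlap. Against Con rats there was no such separation, since the Con-24h rats lay at 4.92% to 6.16% and the Con-6h rats began at 4.65%. As a percent of summed FPKM, DEX-24h replicate 1 (12.4%) lay above the lowest Sham-24h rat (12.3%), so that the DEX-24h rats overlapped the Sham-24h rats, whereas the SAP-24h rats (10.1% to 12.1%) and the Emo-24h rats (11.1% to 11.9%) lay below all of them. In SAP-24h against Sham-24h rats, 5 of 8 T cell markers fell. So did Aqp5 (-1.55) of 6 alveolar type 1 and Kdr (-0.83) of 5 endothelial markers. Il1r2 (3.46) of 8 neutrophil and Sftpb (0.81) of 8 alveolar type 2 markers rose. Of the other endothelial markers, Vwf (0.31), Cldn5 (0.21) and Tek (0.21) lay above 0 and Cdh5 (-0.04) below, none of them called. The part of these cell types in the share was not tested. A share depends on every other gene in the library, and these differences were not tested. By the mapping summary supplied with the study, a lower share of reads mapped uniquely in every SAP, DEX and Emo library than in any Sham or Con library. In comparisons against Sham and Con rats this difference between libraries and the treatment cannot be told apart.

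**Figure D3:**
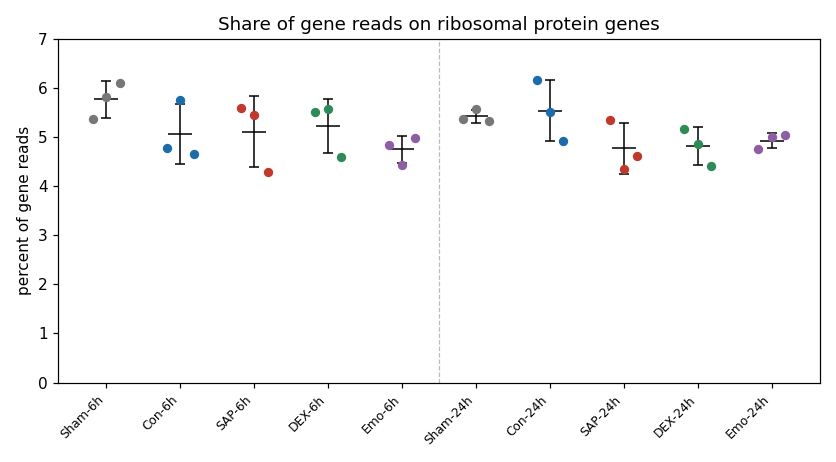
Percent of gene reads on the 102 ribosomal protein rows in each rat (points), with the mean and SD of 3 rats (bars), by group. All libraries lie between 4.29% and 6.16%, with the Emo-6h rats below all Sham-6h rats and the DEX-24h and Emo-24h rats below all Sham-24h rats, while each of these groups overlaps the Con rats of its time.

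At 6 hours, the effect of SAP on single members was not detectable. None of the 83 tested rows was called in SAP-6h against Sham-6h rats by edgeR or DESeq2, where 0.270% of all genes were called by edgeR, and 4 rows had an unadjusted p under 0.05 (4.82%, against 13.1% of all genes). Their median log2 fold change was -0.15, with 73 rows below 0, against -0.02 over all genes. None was called in SAP-6h against Con-6h (0.207% of all genes; 3 rows at an unadjusted p under 0.05, against 10.4% of all genes) or in Sham-6h against Con-6h, where 0% of all genes were called by edgeR and none of the members by DESeq2. In the last comparison 30 members were higher in Sham-6h rats at an unadjusted p under 0.05, 36.1% of the rows against 3.97% of all genes, with a median of 0.29 on the log2 scale.

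At 24 hours, 1 member was called in SAP-24h against Sham-24h rats (Rps6, above), where 12.4% of all genes were called. With library totals alone, 4 members were called. Against Con-24h rats 4 members were lower, where 10.0% of all genes were. Besides Rps6 these were Rps18, with 646, 643 and 684 FPKM in SAP-24h and 1136, 1025 and 756 FPKM in Con-24h rats (log2 fold change -0.44, edgeR adjusted p = 0.0266), Rps10 on chromosome 20, with 501, 423 and 414 against 683, 687 and 575 FPKM (-0.41, edgeR adjusted p = 0.0340), and Rpl15, with 373, 337 and 326 against 554, 508 and 433 FPKM (-0.40, edgeR adjusted p = 0.0289). For Rps6 the nearest rats of the 2 groups held 102 reads (SAP-24h replicate 1) and 86 reads (Con-24h replicate 1), so this call rests on the other 2 Con-24h rats. The count was 0 without Con-24h replicate 2 or without SAP-24h replicate 3, 1 without Con-24h replicate 1, 2 without SAP-24h replicate 2 and 13 without Con-24h replicate 3. It was 0 with the 2 groups fitted alone and 2 without the filter on low counts, but above 4 by DESeq2 and with library totals alone. The 8 neutrophil markers rose and 7 of 8 T cell markers fell in the same comparison, as did Aqp5 (-1.85) and Ager (-0.98) of 6 alveolar type 1, Kdr (-1.25) of 5 endothelial and Tppp3 (-0.80) of 6 ciliated cell markers. The part of these cell types in the values was not tested.

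The 2 control operations differed as well. In Sham-24h against Con-24h rats 7 members were lower, against 4.21% of all genes, namely Rps2, Rplp0, Rps10 (chromosome 20), Rpsa, Rpl18, Rps18 and Rpl15, by -0.48 to -0.44 on the log2 scale. These calls depended on the fit, since none of the 8 members called in either direction was called with the 2 groups fitted alone, and without the filter on low counts there were 2 calls. By DESeq2 there were more than 8 calls, and with library totals alone there were fewer. Rps2 had 1298, 1167 and 1069 FPKM in Sham-24h and 1887, 1725 and 1299 FPKM in Con-24h rats (-0.48, edgeR adjusted p = 0.0439). Rplp0 had 1253, 1168 and 1122 against 1887, 1683 and 1292 FPKM (-0.46, edgeR adjusted p = 0.0326). Rps10 had 552, 446 and 427 against 683, 687 and 575 FPKM (-0.46, edgeR adjusted p = 0.0365), and Rpl18 had 842, 801 and 708 against 1246, 1107 and 846 FPKM (-0.45, edgeR adjusted p = 0.0361). In each of these genes Con-24h replicate 3 was the Con-24h rat nearest to the Sham-24h rats. Rpsa had 1111, 967 and 1012 FPKM in Sham-24h and 1579, 1376 and 1256 FPKM in Con-24h rats (edgeR adjusted p = 0.0223). Here too Con-24h replicate 3 was the nearest, and the groups did not overlap in Rpsa or in the genes just named. The chromosome 6 copy of Rpl32 (ENSRNOG00000032605) was the 1 member that was higher in Sham-24h rats, against 5.64% of all genes, at 15.3, 17.8 and 12.2 FPKM against 7.37, 9.32 and 8.39 (log2 fold change 0.85, edgeR adjusted p = 0.0252). The count was 0 without Con-24h replicate 1, Con-24h replicate 2 or Sham-24h replicate 2, 2 without Sham-24h replicate 1, 1 without Sham-24h replicate 3 and 15 without Con-24h replicate 3. Neutrophil markers moved in the same comparison. Of 8 of them, 2 were higher in Sham-24h rats (Mmp8 by 3.70 and S100a8 by 3.42 on the log2 scale), the median over the 8 was 2.59, and their summed levels were 203 to 9274 FPKM in Sham-24h and 103 to 957 FPKM in Con-24h rats. None of the T cell, B cell or red blood cell markers was called there, and the part of neutrophils in the values of the members was not tested.

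Few members passed the adjusted test for either drug against SAP at a matched time. In DEX-6h against SAP-6h rats no member was called by edgeR or DESeq2, against 0.979% of all genes by edgeR, and 4 had an unadjusted p under 0.05 (12.1% of all genes), 1 higher and 3 lower. In DEX-24h against SAP-24h rats Rps6 alone was called, against 7.71% of all genes, a call lost with same-numbered rats fitted as blocks. In Emo-6h against SAP-6h rats the chromosome 6 copy of Rpl32 alone was lower, at 6.16, 5.8 and 5.71 FPKM against 14.8, 18.9 and 10.1 (log2 fold change -1.32, edgeR adjusted p = 0.0361), where 0.0314% of all genes were called. This call was lost without SAP-6h replicate 1 or 2 or any of the Emo-6h rats, and without SAP-6h replicate 3 there were 2 calls. At an unadjusted p under 0.05, 13 members were lower in Emo-6h rats (15.7%, against 5.88% of all genes) and 2 were higher (2.41%, against 7.59%), and 61 of the 83 lay below 0, with a median log2 fold change of -0.14. In Emo-24h against SAP-24h rats the chromosome 4 row of Rps4x alone was called, at 19.2, 18.3 and 17.1 FPKM against 12.9, 9.95 and 11.3 (0.51, edgeR adjusted p = 0.0487), against 8.59% of all genes, and it was kept only without SAP-24h replicate 1 when 1 library was left out. By the mapping summary, the uniquely mapped share of reads was lowest in the SAP-24h, higher in the DEX-24h and highest in the Emo-24h libraries, without overlap, and lower in the DEX-6h than in the SAP-6h libraries. With the 2 groups fitted alone or without the filter on low counts, the calls of both Emo comparisons were lost. In both DEX comparisons, and in Emo-24h against SAP-24h or DEX-24h rats, the uniquely mapped share cannot be told apart from the treatment. Between the Emo-6h and SAP-6h libraries this share overlapped.

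Between the drugs, no member was called in Emo-6h against DEX-6h rats by edgeR or DESeq2, against 2.88% of all genes by edgeR, and 6 had an unadjusted p under 0.05 (17.3% of all genes), all lower. In Emo-24h against DEX-24h rats, where 8.89% of all genes were called, Rpl3l alone was. It had 17, 7 and 16 reads in Emo-24h and 1, 0 and 3 in DEX-24h rats (log2 fold change 3.33, edgeR adjusted p = 0.0436). The call was lost in each of the 6 fits without 1 library and without the filter on low counts. It was also lost with same-numbered rats fitted as blocks or with these groups fitted alone. The 8 heart muscle markers summed to 128 to 264 FPKM in Emo-24h and 19.5 to 158 FPKM in DEX-24h rats, with none of the 8 called, and their part in the value of Rpl3l was not tested.

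The shifts of the members as a group at 24 hours were small, with medians of -0.01 in SAP-24h against Sham-24h, -0.10 in DEX-24h against SAP-24h and -0.16 in Emo-24h against SAP-24h on the log2 scale. With TMM factors (trimmed mean of M values), 41, 21 and 14 of 83 members lay above 0 in these comparisons, and with RLE factors (median ratios to a reference library) these were 48, 21 and 12. With library totals alone they were 11, 45 and 58, a setting that moved the median of all genes by -0.17, 0.12 and 0.21, so that the members' counts moved with those of all genes.

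Most calls among the members came from 24 against 6 hours in DEX and Emo rats, where some fell and others rose, and where many genes of all kinds were called. Members were called there in 28.9% (DEX) and 31.3% (Emo) of the tested rows, near the 25.9% and 34.1% of all genes. These comparisons also set rats that could have had both doses of the drug against rats collected before the 12-hour dose, so time and the second dose cannot be told apart. In DEX-24h against DEX-6h rats 18 members fell (21.7% of the tested rows, against 12.3% of all genes) and 6 rose (7.23% against 13.6%). In Emo-24h against Emo-6h rats 13 fell (15.7% against 16.8%) and 13 rose (15.7% against 17.3%). All 13 members that fell in Emo rats were among the 18 that fell in DEX rats, and 5 of the 6 that rose in DEX rats were among the 13 of Emo rats, while none was called in opposite directions. Of what fell in Emo rats, 100% of members and 48.1% of all genes also fell in DEX rats, and of what fell in DEX rats, 72.2% of members and 65.7% of all genes also fell in Emo rats. Of what rose in DEX rats, 83.3% of members and 70.3% of all genes also rose in Emo rats, and of what rose in Emo rats, 38.5% of members and 55.4% of all genes also rose in DEX rats. Over all genes, 11 were called in opposite directions. No rat is shared between the DEX and the Emo comparison. Across genes, which are not independent replicates, the Pearson r of the log2 fold changes of the 2 comparisons was 0.498 over all 83 rows and 0.521 over all 15934 genes, and Spearman's rho was 0.755 and 0.634. Over rows with a mean of at least 100 FPKM, r was 0.956 for 65 members and 0.618 for all 738 such genes, and 92.3% of these members and 80.9% of these genes had the same sign in both. These are descriptions with no test, and the members share libraries and scaling.

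**Figure D4:**
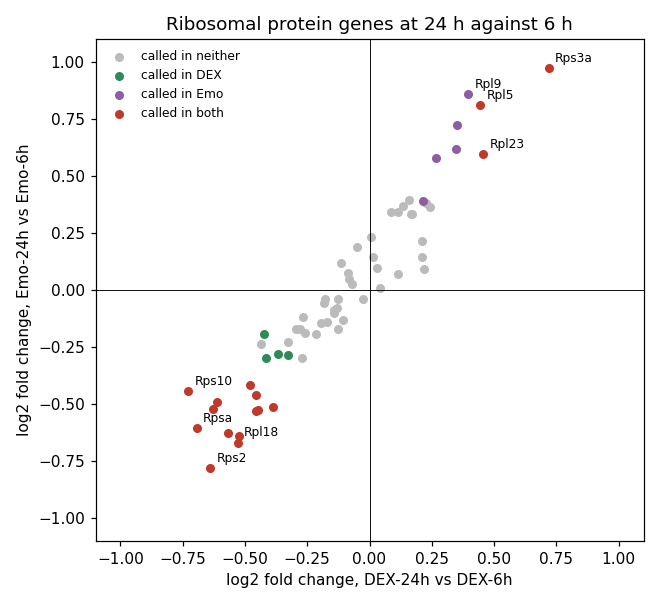
Log2 fold change at 24 against 6 hours in DEX rats (horizontal) and Emo rats (vertical) of the 65 ribosomal protein rows with a mean of at least 100 FPKM, coloured by the comparison in which they were called (edgeR adjusted p under 0.05). Rps2 and Rpsa lie at the lower left and Rps3a at the upper right.

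Among the members that fell in both drug groups, Rpsa had 1561, 1519 and 1435 FPKM in DEX-6h and 939, 911 and 917 FPKM in DEX-24h rats (log2 fold change -0.69, edgeR adjusted p = 0.000444), and 1468, 1347 and 1586 FPKM in Emo-6h and 1018, 996 and 972 FPKM in Emo-24h rats (-0.61, edgeR adjusted p = 0.000694). Rps2, a small subunit protein at the mRNA entry channel, had 1935, 1711 and 1796 FPKM in DEX-6h and 1078, 1098 and 1282 FPKM in DEX-24h rats (-0.64, edgeR adjusted p = 0.00399). In Emo rats it had 1973, 1678 and 2137 FPKM at 6 hours and 1203, 1182 and 1094 FPKM at 24 hours (-0.78, edgeR adjusted p = 0.000530). All rats at 24 hours thus lay below all rats at 6 hours for both genes. Rplp0, the base of the P-stalk that recruits elongation factors, went from a mean of 1705 to 1172 FPKM in DEX (-0.53) and from 1764 to 1171 FPKM in Emo rats (-0.64). Rps10 (chromosome 20) had 718, 640 and 667 FPKM in DEX-6h and 393, 405 and 412 FPKM in DEX-24h rats (-0.73), next to -0.44 in Emo rats. Rpl28 had 490, 479 and 410 FPKM in DEX-6h and 301, 299 and 284 FPKM in DEX-24h rats (-0.63), next to -0.52 in Emo rats. Both belong to the 5 members with the largest falls in DEX rats. In Emo rats these included Rpl18, with 1216, 1003 and 1169 FPKM at 6 and 763, 734 and 704 FPKM at 24 hours (-0.67, next to -0.53 in DEX rats), and Rpl27, which went from a mean of 1226 to 818 FPKM (-0.63, next to -0.57 in DEX rats). The others included Rpl15, Rps28, Rps18, Rps15 and Rpl10a, with -0.61 to -0.39 in DEX and -0.53 to -0.46 in Emo rats. Among those called in DEX rats alone were Rps4y2 (-1.11), Rpl3 (-0.42), Rps3 (-0.41) and Rpl13 (-0.37), and a difference between the drugs in these was not tested.

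Among the members that rose, Rps3a had 519, 533 and 361 FPKM in DEX-6h and 828, 788 and 699 FPKM in DEX-24h rats (log2 fold change 0.72, edgeR adjusted p = 0.0305), and 321, 344 and 400 FPKM in Emo-6h and 657, 731 and 763 FPKM in Emo-24h rats (0.97, edgeR adjusted p = 0.00371). Rpl5, the carrier of 5S rRNA, went from a mean of 490.5 to 663 FPKM in DEX (0.45) and from 360 to 650 FPKM in Emo rats (0.81). Rpl23 rose by 0.46 and 0.60, and the chromosome X copy of Rpl39 (ENSRNOG00000043348) by 0.66 and 0.70. The chromosome 4 row of Rps4x rose by 0.67 in DEX and 1.34 in Emo rats. Rps27l was called in DEX rats alone, with 40.1, 51.9 and 39.3 FPKM at 6 and 57.3, 69.3 and 72.2 FPKM at 24 hours (0.61, edgeR adjusted p = 0.0111), against 0.22 in Emo rats (edgeR adjusted p = 0.322). In Emo rats alone Rpl9, Rpl7, Rpl26, Rpl22l1, Rpl31l4 and Rpl4 were also called, by 0.39 to 0.86, as were the chromosome 6 copies of Rpl32 (1.41) and Rpl35a (1.44). A difference between the drugs in these members, or in Rps27l, was not tested. Rpl9 had 212, 214 and 210 FPKM in Emo-6h and 378, 398 and 411 FPKM in Emo-24h rats (0.86, edgeR adjusted p = 0.00372), which do not overlap.

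**Figure D5:**
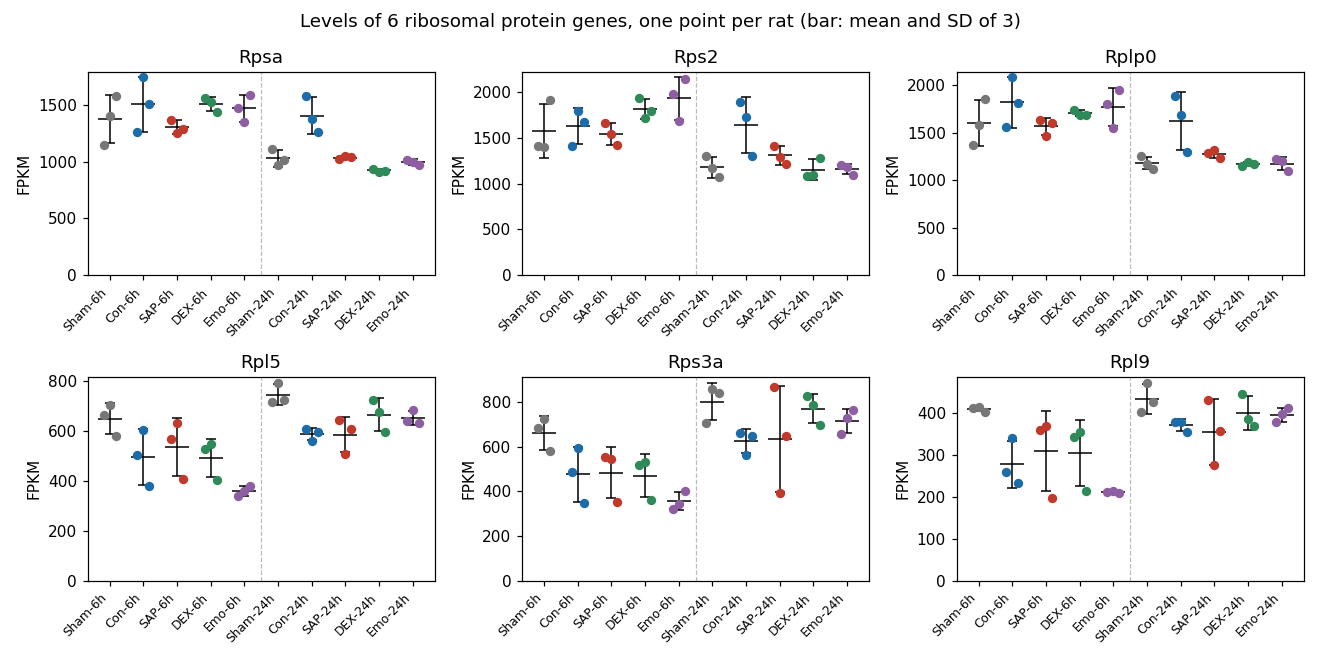
FPKM of Rpsa, Rps2, Rplp0, Rpl5, Rps3a and Rpl9 in each rat (points) with the mean and SD of 3 rats (bars), by group, with 6 hours left and 24 hours right of the dashed line. The genes are shown because they were called in Emo rats with time, the upper 3 lower and the lower 3 higher at 24 hours, so that the separation of the Emo groups follows from this choice.

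Some of the time calls were lost when 1 library was left out, a step that also leaves fewer rats for the test. In DEX rats the count fell from 24 to between 15 and 19 in the 6 fits without 1 library, lowest without DEX-24h replicate 1, and 11 of the 24 stayed called in all of them, including Rpsa, Rps2, Rplp0 and Rpl18 but not Rps3a, Rpl5 or Rpl23. In Emo rats it was 21 to 27, and 18 of the 26 stayed called, including Rps3a, Rpl5, Rpl9 and Rpl23. At a 2-fold minimum only Rps4y2 in DEX rats (3.91% of all genes lower) and the chromosome 4 row of Rps4x and the chromosome 6 copies of Rpl32 and Rpl35a in Emo rats (6.33% of all genes higher) remained, and no member with a mean of at least 100 FPKM was among them. Rps3a in Emo rats, at a fitted 0.97 on the log2 scale, lay just under that minimum, with mean FPKM of 355 and 717.

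The other groups were set beside these. In Sham-24h against Sham-6h rats no member was called by edgeR, against 0.992% of all genes, with 16 at an unadjusted p under 0.05 (20.4% of all genes) and 6 called by DESeq2. Of the 16, 14 were lower (16.9% of the rows, against 9.34% of all genes) and 2 were higher (2.41%, against 11.0%). In Con-24h against Con-6h rats none was called by edgeR, against 0.0126%, with 20 at an unadjusted p under 0.05, all higher (4.73% of all genes), and 2 by DESeq2. In SAP-24h against SAP-6h rats none was called by edgeR or DESeq2, against 6.01% by edgeR, with 4 at an unadjusted p under 0.05 (24.8% of all genes). The 13 members that fell in both drug groups were below 0 in all 13 cases in Sham rats (median -0.38) and in SAP rats (median -0.22), and in 6 of 13 in Con rats (median 0.07). The 5 that rose were above 0 in 4 of 5 in Sham and in Con rats and in 5 of 5 in SAP rats, with medians of 0.22, 0.43 and 0.28.

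The distance between the 2 sets inside a library does not depend on scaling between libraries. The mean log2 CPM of the 5 members that rose, minus that of the 13 that fell, was -3.23 ± 0.156 (SD, n = 3) in DEX-6h and -2.10 ± 0.106 in DEX-24h rats, and -3.52 ± 0.151 in Emo-6h and -2.13 ± 0.0752 in Emo-24h rats, which is how the sets were chosen. In the rats that did not choose them it was -2.71 ± 0.276 in Sham-6h and -2.15 ± 0.182 in Sham-24h, -3.13 ± 0.211 in Con-6h and -2.78 ± 0.219 in Con-24h, and -2.96 ± 0.225 in SAP-6h and -2.48 ± 0.243 in SAP-24h rats. The Sham rats at 24 hours lay above those at 6 hours without overlap (-2.36 to -2.04 against -3.01 to -2.47), as did the Con rats (-2.93 to -2.53 against -3.38 to -3.00), while in SAP rats the ranges met (-2.75 to -2.29 against -3.20 to -2.75). This is a description, with no test, since the sets were picked by their values.

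Whether time acted differently by group was tested as an interaction. For DEX against SAP no member was called by edgeR or DESeq2, where 0.169% of all genes were called by edgeR and 7 members had an unadjusted p under 0.05 (13.6% of all genes). For SAP against Sham no member was called by either (0.0314% of all genes by edgeR; 3 members at an unadjusted p under 0.05, against 12.6% of all genes). For Emo against SAP 2 members were called, both higher, against 1.30% of all genes. The chromosome 4 row of Rps4x had 6.70, 7.23 and 7.0 FPKM in Emo-6h and 19.2, 18.3 and 17.1 FPKM in Emo-24h rats, a change larger by 1.28 on the log2 scale (SE 0.23, edgeR adjusted p = 0.0135) than in SAP rats. The chromosome 6 copy of Rpl32 had 6.16, 5.8 and 5.71 FPKM in Emo-6h and 16.4, 17.4 and 14.8 FPKM in Emo-24h rats, a change larger by 1.77 (SE 0.33, edgeR adjusted p = 0.0160). Both calls were lost without Emo-6h replicate 1, without SAP-6h replicate 2 or with the 4 groups fitted alone. The uniquely mapped share of reads, which differed with time in Emo rats without overlap and overlapped between the times in SAP rats, cannot be told apart from this interaction. Both rows held few reads, at most 636 and 349, next to rows of the same protein with medians far above them. Their values are uncertain where reads could be assigned to either copy, and the copies were not compared by sequence.

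Cell type markers moved with time too. In DEX-24h against DEX-6h rats all 8 T cell markers and all 6 B cell markers fell, with summed levels of 46.6 to 57.3 FPKM at 6 and 12.2 to 19.1 FPKM at 24 hours for T cells and 35.8 to 65.4 and 6.31 to 12.98 FPKM for B cells. In Emo-24h against Emo-6h rats none of these 14 was called, and 6 of 7 red blood cell markers fell, from a sum of 3003 to 7391 down to 294 to 1348 FPKM. In DEX rats none of the 7 red blood cell markers was called. Of 5 endothelial markers, Cldn5 fell (-0.69 in DEX and -1.20 in Emo rats) and Kdr (1.63 and 0.66) and Tek (0.52 and 0.58) rose in both drug groups, as did Lamp3 (1.30 and 1.43) of the 8 alveolar type 2 markers. In DEX rats Vwf (-0.58), another endothelial marker, and Ngp (-4.43), of the 8 neutrophil markers, also fell, and Cav1 (0.76), of the 6 alveolar type 1 markers, rose. In Emo rats Ager (-0.96), an alveolar type 1 marker, and Napsa (-0.46), an alveolar type 2 marker, fell, and Ccdc39 (1.18), of the 6 ciliated cell markers, rose. The difference between the drugs in these marker changes was not tested. The part of these cell types in the values of the ribosomal protein genes was not tested. The uniquely mapped share of reads moved with time as well. By the mapping summary supplied with the study it was higher in every 24 hour library than in every 6 hour library within the DEX and within the Emo rats, so that this and the time cannot be told apart there.

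Other genes of the translation machinery with TOP mRNAs also held both directions. Of 17 tested, 6 fell and 3 rose in DEX-24h against DEX-6h rats, where 12.3% of all genes fell and 13.6% rose, and 6 fell and 4 rose in Emo-24h against Emo-6h rats, where 16.8% fell and 17.3% rose. Eef1g, an elongation factor subunit, fell by 0.64 and 0.58 on the log2 scale, Eef2, the translocation factor, by 0.52 and 0.53, and Gnb2l1, the 40S scaffold also called RACK1, by 0.46 in both. Eif3e, an initiation factor subunit, rose by 0.91 and 1.23, Tpt1 by 0.54 and 0.71 and Naca by 0.44 and 0.52. All of these passed edgeR's test at an adjusted p under 0.05 in both comparisons. Beside the same shares of all genes, of the 73 mitochondrial ribosomal protein genes tested, 6 fell and 5 rose in DEX and 19 fell and 8 rose in Emo rats, with medians of -0.02 and -0.10.

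Altogether, 40 members of at least 100 FPKM were called in none of the 17 comparisons, and 34 of the 83 tested rows were called in at least 1 (41.0%, against 60.2% of all genes). Rps10 (chromosome 20), Rpl15 and Rps18 were called most often, in 4 comparisons each.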

How the data were processed

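Whole-lung RNA had been poly(A)-selected, sequenced in pairs and aligned by the authors with TopHat2 to the Ensembl rat genome, with reads that mapped to more than 1 place discarded. The authors deposited raw counts per gene and FPKM, which they had scaled by gene length and mapped fragments, and the counting tool is not given in the sources used here. Gene reads per library were 16813949 to 34692306. The deposited counts were tested with edgeR 4.0.16 (R 4.3.3), using TMM factors and the quasi-likelihood test on 15934 genes over all 30 libraries in 10 groups, with Benjamini-Hochberg adjustment and a threshold of 0.05. Low genes were removed by edgeR's filter on expression. Levels are the deposited FPKM. Alternatives were no TMM factors, RLE factors, no filter, a 2-fold minimum, a replicate block, each comparison alone, DESeq2 1.42.0 and leaving out each library. The same rats were in several comparisons. The labels give 3 rats per group, so p-values measure the spread between rats. Named with values were Rps6 and the acidic stalk genes, the paralogs, the 5 highest and 5 lowest members by mean FPKM, the 5 with the largest and smallest SD, and in each comparison at least the 5 higher and 5 lower called members with the largest change; further called members were named after their values were seen. The members and gene lists were chosen with earlier results of these data known. On simulated counts for DEX-24h against DEX-6h, 200 genes drawn from all 15934 were changed. Of these, 47 of 100 changed 2-fold and 85 of 100 changed 4-fold were recovered, with 10 false calls. The changed genes were not chosen from the members, and far fewer genes changed than the 25.9% called in the data. This recovery therefore does not give the rate for the members. Start regions came from RefSeq (GRCr8), matched by symbol and chromosome. Some genes are counted but not reported by name here.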

Additional observations from a re-analysis of the deposited data

Results flagged for a closer look

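The change from 6 to 24 hours differed between Emo and SAP rats, by a test of the difference itself (edgeR's quasi-likelihood test), for 2 ribosomal protein rows. For the chromosome 4 row of Rps4x the difference was 1.28 on the log2 scale, and for the chromosome 6 copy of Rpl32 it was 1.77. Each was lost in 2 of 12 fits without 1 library, which were those without Emo-6h replicate 1 or without SAP-6h replicate 2.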

How the results depend on the processing

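No call of a named member changed direction under any alternative. In Emo-6h against SAP-6h rats the count of 1 was 0 without the filter or compared alone and 2 by DESeq2. In SAP-24h against Sham-24h rats 1 became 4 without TMM factors. In SAP-24h against Con-24h rats 4 became 1 at a 2-fold minimum, 14 without TMM factors, 2 without the filter, 0 compared alone and 8 by DESeq2. In Sham-24h against Con-24h rats 8 became 0 at a 2-fold minimum, 5 without TMM factors, 2 without the filter, 0 compared alone and 13 by DESeq2. In DEX-24h against SAP-24h rats 1 became 0 with the replicate block. In Emo-24h against SAP-24h rats 1 became 0 at a 2-fold minimum, with RLE factors, without the filter or compared alone, 2 without TMM factors and 3 by DESeq2. In Emo-24h against DEX-24h rats 1 became 0 without the filter, with the replicate block or compared alone. With time, DESeq2 called 6 in Sham and 2 in Con rats against 0, and a 2-fold minimum left 1 of 24 in DEX and 3 of 26 in Emo rats. The Emo interaction count of 2 was 4 without TMM factors and 0 compared alone. As a percent of summed FPKM the difference in share was -1.57 for SAP-6h against Sham-6h, -1.69 for SAP-24h against Sham-24h, 0.642 for Emo-24h against SAP-24h and -0.758 for Sham-24h against Sham-6h. The cause of these changes was not tested.

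Without 1 library the counts ranged from 0 to 2 (Emo-6h against SAP-6h), 0 to 1 (Emo-6h against DEX-6h), 0 to 1 (SAP-24h against Sham-24h), 0 to 13 (SAP-24h against Con-24h), 0 to 15 (Sham-24h against Con-24h), 0 to 0 (DEX-24h against SAP-24h and Emo-24h against DEX-24h), 0 to 1 (Emo-24h against SAP-24h, Sham and SAP with time), 15 to 19 (DEX with time) and 0 to 3 (Emo interaction). The deviations of same-numbered rats of different groups had a median correlation of -0.00648 over 135 pairs (-0.363 to 0.359). For rats with different numbers it was 0.00965 over 270 pairs. Same-numbered rats thus did not deviate together over all groups, but a median cannot exclude pairing between some of them. Under the replicate block the counts with time were 24 in DEX and 27 in Emo rats. Rows with few unique reads limit what depth can show.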

Other observations

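Genes of ribosome biogenesis were higher in SAP-24h than in Sham-24h rats in 4 of 28 tested, against 6.80% of all genes, and 5 of 28 were lower in Emo-24h than in SAP-24h rats, against 5.02% of all genes, comparisons that share the SAP-24h rats. Rrp12, an export factor of pre-ribosomes, was higher in SAP-24h rats by 0.93 on the log2 scale and lower in Emo-24h rats by -1.08. Of 16 genes listed for the control of ribosomal protein synthesis, most of them of the mTOR pathway and translation initiation, 5 were higher in SAP-24h than in Sham-24h rats, against the same 6.80% of all genes, among them the transcription factors Myc (1.58) and Mycn (1.06), and Eif4ebp1 (0.79), an inhibitor of cap-dependent initiation. Against SAP-24h rats, Myc (-1.53), Tsc1 (-0.76) and Eif4ebp1 (-0.72) were lower in Emo-24h rats, and Mycn (-1.66) and Sesn2 (-0.69) in DEX-24h rats. Of all genes, 5.02% were lower in Emo-24h and 4.73% in DEX-24h rats, and a difference between the drugs in these genes was not tested. With time, Eif4ebp1 and Sesn2 fell and Rps6kb1, an S6 kinase, rose in both drug groups (-0.76, -0.84 and 0.60 in DEX, -0.98, -1.18 and 0.61 in Emo rats). All of these passed edgeR's test at an adjusted p under 0.05.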
